A study of Homo sapiens and Mus musculus with 12 samples.

Results

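The small heat shock protein genes CRYAB, HSPB1, HSPB2, HSPB6 and HSPB8, the gene HSPB11, which is numbered with them, and the co-chaperone gene BAG3 were followed through polysome profiling libraries of 2 melanoma cell lines. The 7 genes were matched by symbol in capitals in the table of human A375 cells (16782 genes listed) and in that of mouse Yumm1.7 cells (12711 genes listed). In A375, 5 of the 7 were listed under these symbols and HSPB11 was listed under its current symbol IFT25, which RefSeq pairs with HSPB11, so that 6 members have values. HSPB2 was not analysed in A375. In Yumm1.7, 6 of the 7 have values and Hspb1 was not analysed. The set was put together because CRYAB had the strongest gain in S shared by both lines, so the S against P values of CRYAB in input RNA are given as a description and support nothing.

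Each line was profiled in a state labelled S and in a state labelled P, from a series that set drug-tolerant persister cells beside the parental cells they came from. Which letter belongs to which cells is not stated in the labels, and no source used here gives the drug, its dose or its duration. The groups, with 1 library each, were therefore A375 S, A375 P, Yumm1.7 S and Yumm1.7 P, each as input RNA (before the gradient), as monosome RNA (the peak of single ribosomes and some fractions lighter than it) and as polysome RNA (the densest fractions). Both lines are labelled as skin melanoma cells. All values are the authors' TPM, that is reads per gene length, scaled to 1000000 per library. The 12 libraries have no replicates, so no difference below has a replicate check, and no p-value is given.

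Small heat shock proteins are ATP-independent chaperones that share an alpha-crystallin domain, assemble into large oligomers and hold unfolding proteins in a soluble state until the HSP70 machinery refolds them or they are degraded. BAG3 links HSP70 through its BAG domain to the small heat shock proteins, HSPB8 above all, and passes damaged proteins such as filamins to autophagy. The heat shock factor HSF1 drives several of these genes by binding inverted repeats of the letters GAA in their promoters. CRYAB, HSPB2 and HSPB6 are best known from muscle, and CRYAB also from the lens, whereas HSPB1 is found in many cell types. HSPB11 carries the numbering of the family but encodes IFT25, a component of the transport particle of cilia.

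In the human genome (GRCh38.p14, RefSeq coordinates with strands from GENCODE), CRYAB lies on chromosome 11 from 111908564 to 111923740 on the minus strand. HSPB2 lies on the plus strand from 111912734 to 111914093, inside the annotated span of CRYAB. Whether exons of these 2 genes overlap was not examined. Where they do, reads cannot be told apart unless counting used strand, and no source used here gives the strand setting. HSPB1 lies on chromosome 7 (76302673 to 76304292), HSPB6 on chromosome 19 (35754566 to 35757029), HSPB8 on chromosome 12 (119178931 to 119194746), HSPB11 on chromosome 1 (53911576 to 53946305) and BAG3 on chromosome 10 (119651380 to 119677819). No mouse annotation was used here.

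Promoters are shown of 4 members, which share a family or, in the case of BAG3, a chaperone pathway. These members differed in their S against P values, but whether the promoter letters bear on that was not tested. All windows are human, whereas HSPB6 was compared in mouse Yumm1.7 cells only. Each window runs 5′ to 3′ on the gene's own strand from 250 bases before to 50 bases after the RefSeq start, in GRCh38.p14. Capitals mark the heat shock element letters GAANNTTC or TTCNNGAA, each of which reads the same on both strands. The windows are chr7:76302423-76302722 (plus strand) for HSPB1, chr12:119178681-119178980 (plus) for HSPB8, chr19:35756980-35757279 (minus) for HSPB6 and chr10:119651130-119651429 (plus) for BAG3.
HSPB1: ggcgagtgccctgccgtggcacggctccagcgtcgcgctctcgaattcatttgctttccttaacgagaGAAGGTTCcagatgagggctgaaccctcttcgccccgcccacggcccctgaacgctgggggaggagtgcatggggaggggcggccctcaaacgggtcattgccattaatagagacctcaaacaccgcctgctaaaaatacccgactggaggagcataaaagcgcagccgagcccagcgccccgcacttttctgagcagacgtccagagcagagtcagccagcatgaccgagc
HSPB8: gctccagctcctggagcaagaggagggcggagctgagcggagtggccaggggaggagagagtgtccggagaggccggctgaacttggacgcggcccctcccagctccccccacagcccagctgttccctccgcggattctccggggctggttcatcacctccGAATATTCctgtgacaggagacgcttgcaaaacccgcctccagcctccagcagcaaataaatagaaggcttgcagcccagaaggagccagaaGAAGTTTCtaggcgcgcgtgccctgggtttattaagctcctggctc
HSPB6: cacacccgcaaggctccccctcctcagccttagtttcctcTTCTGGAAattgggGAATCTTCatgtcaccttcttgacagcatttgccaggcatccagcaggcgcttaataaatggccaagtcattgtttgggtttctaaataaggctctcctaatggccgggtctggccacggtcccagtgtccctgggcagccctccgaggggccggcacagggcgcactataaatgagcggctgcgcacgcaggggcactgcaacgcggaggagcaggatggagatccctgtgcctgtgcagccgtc
BAG3: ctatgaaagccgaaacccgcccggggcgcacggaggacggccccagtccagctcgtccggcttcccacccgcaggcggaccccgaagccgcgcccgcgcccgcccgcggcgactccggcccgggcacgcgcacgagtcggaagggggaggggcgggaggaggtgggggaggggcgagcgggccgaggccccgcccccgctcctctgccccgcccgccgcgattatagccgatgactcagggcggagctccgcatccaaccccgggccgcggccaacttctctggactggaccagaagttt
Positions give the first base of a match, with 1 at the transcript start and -1 just before it. HSPB1 holds GAAGGTTC at -182. HSPB8 holds GAATATTC at -88 and GAAGTTTC at 5, and HSPB6 holds TTCTGGAA at -210 and GAATCTTC at -196, which do not overlap. The BAG3 window and both HSPB11 windows hold neither arrangement in full. The BAG3 window ends in the letters gaagttt, so a match running past its end could not be seen. Among all 35116 promoter windows of the same length, 13.5% hold at least 1 of the 2 arrangements (6.77% hold GAANNTTC and 7.74% hold TTCNNGAA). The TATA box letters TATAAA were found on the gene's strand in HSPB6 at -29 and on either strand in 11.5% of all windows. G and C made up 61.0% of the HSPB1 window, 62.0% of HSPB8, 58.7% of HSPB6 and 75.3% of BAG3, against a median of 58.7% over all windows. These matches describe letters and say nothing about which factor was bound in these cells. No window was available for CRYAB and HSPB2, which are named only.

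Differences are given on the scale log2(TPM + 1) and, unless stated otherwise, relative to the median gene of the same comparison. A gene was compared when its 6-library mean reached 1 TPM, as it did for 12638 genes of A375 and 10492 of Yumm1.7. Differences that reach 2-fold on this scale are counted as higher or lower. By this filter 5 members were compared in A375, where HSPB6 had a mean of 0.724 TPM, and 6 in Yumm1.7. The median gene was at -0.20 for S minus P in input, 0.04 in monosomes and -0.21 in polysomes of A375. In Yumm1.7 it was at -0.94, -0.21 and -1.53, so that values there depend more on whether the median gene is taken as 0. The listed genes summed to between 71.9% and 90.1% of the total in A375 S, and between 66.6% and 87.5% in A375 P. In Yumm1.7 S they summed to between 84.5% and 88.1%, and in Yumm1.7 P to between 88.3% and 94.4%. Between 965 and 1581 listed genes had 0 TPM in the Yumm1.7 S libraries, against between 276 and 336 in P. In A375 it was between 773 and 1129 in S and between 447 and 885 in P.

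Markers of the labelled cell type and of muscle were read beside the members, since CRYAB, HSPB2 and HSPB6 are muscle genes. In A375, 5 of 7 melanocyte markers were listed and summed to between 301 and 566 TPM in S and between 143 and 377 TPM in P. SOX10 had between 78.7 and 217 TPM in S and between 73.0 and 249 TPM in P. The markers did not move together. DCT (249 TPM in S input and 25.2 in P) and PMEL (39.5 and 6.49 TPM) were higher in S input. MITF was lower in S in input (43.0 and 66.6 TPM), monosomes (44.2 and 56.6 TPM) and polysomes (32.0 and 78.4 TPM). In Yumm1.7, 3 of the 7 were listed, summing to between 0.571 and 2.29 TPM in S and between 5.09 and 7.09 TPM in P, so that the melanocyte markers analysed there were near 0. Smooth muscle markers (7 of 7 listed in Yumm1.7) summed to between 882 and 1740 TPM in Yumm1.7 S, against between 4.53 and 12.7 TPM in P. In A375, where 4 of the 7 were listed, the sums were between 18.0 and 72.9 TPM in S and between 1.63 and 7.21 TPM in P, and MYLK made up most of them (68.3 TPM in S input, with ACTA2 at 1.08). In Yumm1.7 input, Acta2 had 603 TPM in S and 5.97 in P, Tagln 138 and 0.440 TPM, and Mylk 4.63 and 1.54 TPM, while Actg2 had 136 TPM in S and was listed at 0 in P. The other 3 markers of that list, named after their values were seen, were low in all Yumm1.7 libraries: Cnn1 had at most 1.92 TPM in S and 0.027 in P, Myh11 at most 0.335 TPM in S and was listed at 0 in P, and Des had at most 0.244 TPM in S and 0.654 in P. Fibroblast markers (6 of 7 listed) summed to between 318 and 730 TPM in Yumm1.7 S, against between 16.7 and 64.3 TPM in P. Col3a1 (204 TPM in S input and 25.4 in P) and Col1a2 (74.1 and 12.4 TPM) made up most of the S input sum. Dcn had at most 8.45 TPM in S and 0.107 in P. Col1a1 and Pdgfra, named after their values were seen, had at most 2.44 and 0.630 TPM in S and 0.088 and 0.679 in P. The 2 fibroblast markers listed in A375 summed to between 0.803 and 1.26 TPM in S and between 1.42 and 6.49 TPM in P. Markers of skeletal and heart muscle summed to at most 2.17 TPM in A375 and 5.83 TPM in Yumm1.7, and no leukocyte marker was listed in Yumm1.7 (in A375, LYZ alone, at most 3.36 TPM). The part of these marker genes in the results on CRYAB, HSPB2 and HSPB6 was not tested. In bulk libraries of this kind, fewer cells of a type and less RNA per cell cannot be told apart.

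CRYAB, the alpha-B crystallin chain, was higher in S than in P in all 6 pairs of libraries. In A375 it had 126 TPM in S input, 31.6 in S monosomes and 188 in S polysomes, against 3.47 TPM in P input, 2.50 in P monosomes and 2.68 in P polysomes. The ratio of TPM was 36.3 in input, 12.6 in monosomes and 70.4 in polysomes. By TPM, CRYAB ranked 952nd of the 16782 listed genes in A375 S input and 10427th in P input. It was the 8th highest of 12638 genes for S minus P in polysomes (log2 5.90 relative to the median gene) but the 75th in monosomes (3.18). In input the value was 5.03, the 14th highest.

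In Yumm1.7, Cryab was among the most abundant mRNAs in S and well expressed in P. It had 2016 TPM in S input, 2191 in S monosomes and 1438 in S polysomes, against 76.2 TPM in P input, 68.7 in P monosomes and 49.1 in P polysomes. All S libraries lay above all P libraries, and the ratios were close to each other across the fractions (26.4 in input, 31.9 in monosomes and 29.3 in polysomes). Cryab ranked 67th of the 12711 listed genes in S input and 1507th in P input. Relative to the median gene, S minus P was 5.64 in input (20th highest of 10492 genes), 5.18 in monosomes (29th) and 6.38 in polysomes (13th). The P level also differed between the lines, at 3.47 TPM in A375 and 76.2 TPM in Yumm1.7 input, each in its own table.

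HSPB2, whose product binds the myotonic dystrophy protein kinase and whose gene neighbours CRYAB, has values in Yumm1.7 only. Hspb2 had 129 TPM in S input, 55.4 in S monosomes and 130 in S polysomes, against 6.67 TPM in P input, 0.622 in P monosomes and 6.04 in P polysomes. S lay above P in every fraction, with log2 values of 5.02, 5.33 and 5.75 relative to the median gene for input, monosomes and polysomes. In S input Hspb2 stood at a lower level than Cryab (129 against 2016 TPM), and its P monosome value is low enough that the pseudocount shapes the difference. Of the other genes around the CRYAB locus, 0 of 5 compared were past 2-fold in A375 input (31.8% of all genes either way) and 1 of 5 in Yumm1.7 input (45.3%). That gene was Dlat, a subunit gene of the pyruvate dehydrogenase complex, with 1.94 TPM in S and 32.8 in P. Among them, DIXDC1, a Wnt pathway gene, had 2.01 TPM in S and 2.58 in P in A375 input, and 0.421 and 1.45 TPM in Yumm1.7 input.

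HSPB6, also called Hsp20, is a small heat shock protein of smooth and heart muscle that protein kinase A phosphorylates. In Yumm1.7, Hspb6 had 90.5 TPM in S input, 178 in S monosomes and 42.5 in S polysomes, against 19.5 TPM in P input, 9.28 in P monosomes and 12.6 in P polysomes. S lay above P in each fraction, most in monosomes (log2 4.33) and less in input (3.10) and polysomes (3.21). In A375 the gene was hardly expressed, between 0.270 and 1.27 TPM in S and between 0.208 and 1.32 TPM in P. The 2 states overlapped there, and HSPB6 did not pass the filter.

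HSPB8, the partner that BAG3 binds in chaperone-assisted autophagy, differed little between the states. In A375 it had 9.99 TPM in S input, 6.14 in S monosomes and 12.1 in S polysomes, against 6.13 TPM in P input, 3.79 in P monosomes and 10.9 in P polysomes. In Yumm1.7 it had 56.3, 69.8 and 45.6 TPM in S input, monosomes and polysomes, against 54.4, 102 and 72.8 TPM in P. All 6 differences were within 2-fold of the median gene. In Yumm1.7 polysomes the sign depended on the scale, with 0.87 relative to the median gene and -0.66 as deposited, and input gave 0.98 and 0.05.

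HSPB1, also called Hsp27, is a widely expressed small heat shock protein that p38-activated kinases phosphorylate. In A375 it had 553 TPM in S input, 120 in S monosomes and 1070 in S polysomes, against 248 TPM in P input, 227 in P monosomes and 347 in P polysomes. S was thus above P in input and polysomes and below it in monosomes, with log2 values of 1.35, 1.83 and -0.95 relative to the median gene. It was the most abundant member in all 6 A375 libraries, and in S polysomes it ranked 117th of all listed genes. The pseudogenes HSPB1P1 and HSPB1P2, which could share reads with HSPB1, reached at most 1.69 and 0.861 TPM.

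HSPB11 was lower in S than in P in all 6 pairs of TPM values, and within 2-fold of the median gene in 5 of them. In A375 it had 36.1 TPM in S input, 20.8 in S monosomes and 50.9 in S polysomes, against 68.1, 26.4 and 62.5 TPM in P. In Yumm1.7 it had 11.6, 20.5 and 27.6 TPM in S input, monosomes and polysomes, against 36.7, 53.3 and 41.3 TPM in P. Relative to the median gene, Yumm1.7 monosomes were past 2-fold (-1.13), while Yumm1.7 polysomes had the other sign (0.97, or -0.56 as deposited).

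BAG3, the co-chaperone, did not follow CRYAB. In A375 it had 32.1 TPM in S input, 10.4 in S monosomes and 59.5 in S polysomes, against 69.2 TPM in P input, 11.5 in P monosomes and 123 in P polysomes. In Yumm1.7, Bag3 had 11.5, 20.8 and 15.6 TPM in S input, monosomes and polysomes, against 34.9, 22.9 and 71.4 TPM in P. S lay below P in each of the 6 pairs of TPM values, by 4.57-fold in Yumm1.7 polysomes at the most and by 1.10-fold in Yumm1.7 monosomes at the least. Relative to the median gene all 6 differences were within 2-fold, between -0.89 (A375 input) and 0.07 (Yumm1.7 monosomes). As deposited, input was at -1.08 in A375 and -1.52 in Yumm1.7.

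**Figure D1:**
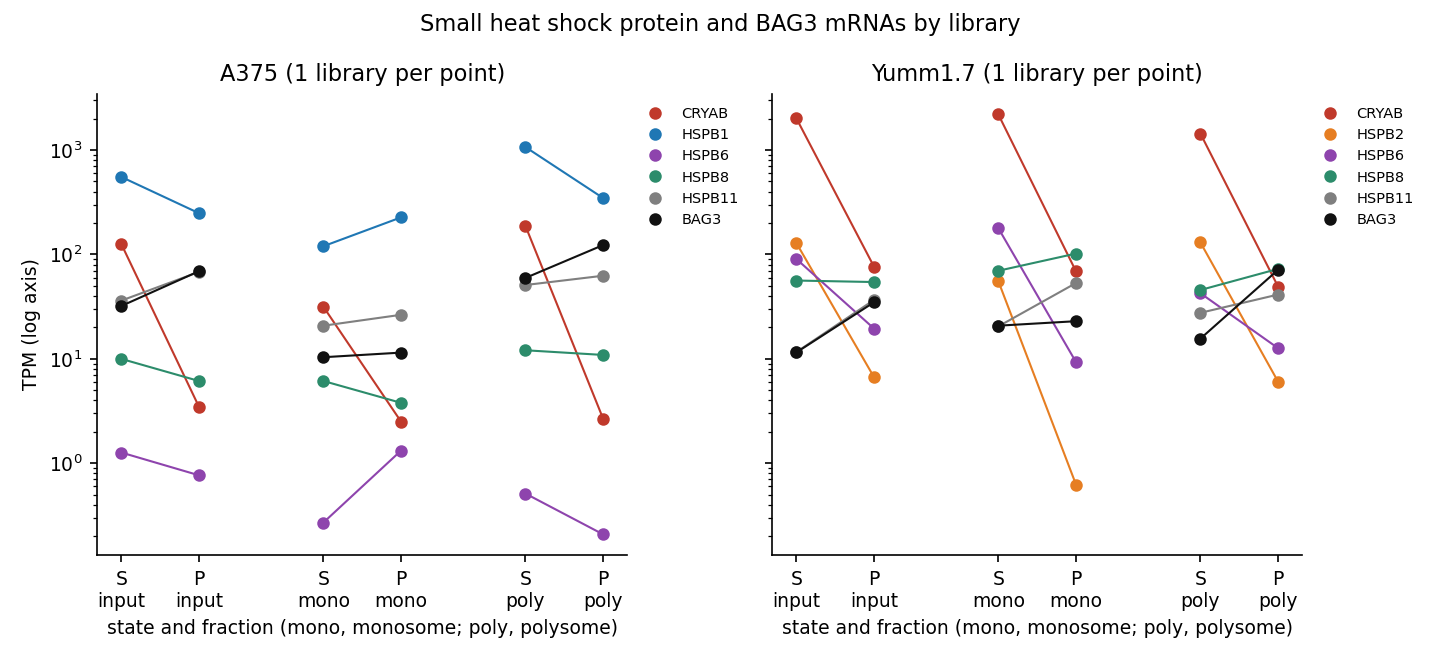
TPM (log axis) of each member in the 6 libraries of A375 (left) and Yumm1.7 (right), 1 point per library, with S left of P in input, monosome (mono) and polysome (poly) RNA and a line joining the 2 states. The CRYAB line slopes down from S to P in all 6 pairs, for example 126 against 3.47 TPM in A375 input, whereas the BAG3 line slopes up.

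Summed over the small heat shock proteins without HSPB11, the level and the make-up differed between the states. In A375, CRYAB, HSPB1, HSPB6 and HSPB8 together had 690 TPM in S input, 158 in S monosomes and 1271 in S polysomes, against 259, 234 and 361 TPM in P. CRYAB made up 18.3% of the sum in S input and 1.34% in P input, and HSPB1 80.1% and 96.0%. In Yumm1.7, where the sum covers CRYAB, HSPB2, HSPB6 and HSPB8, it was 2291, 2495 and 1657 TPM in S input, monosomes and polysomes, against 157, 181 and 141 TPM in P. Cryab made up between 86.8% and 88.0% of the sum in S and between 34.9% and 48.6% in P, where Hspb8 was the most abundant of the 4 in monosomes and polysomes. For each TPM of BAG3 there were 21.5 TPM of these small heat shock proteins in A375 S input and 3.74 in P input, and 199 in Yumm1.7 S input and 4.50 in P input. In A375 monosomes the order was the other way round, with 15.2 in S and 20.4 in P. The sums of the 2 lines hold different genes and are not compared.

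Counted against all genes, 2 of 5 members compared reached 2-fold higher in A375 S input and 0 reached 2-fold lower, where 15.6% of all genes were higher, 16.2% lower and 31.8% past 2-fold either way. In A375 monosomes 1 of 5 was higher (11.7% of all genes) and in polysomes 2 of 5 (16.5%), and 0 were lower (13.2% and 15.6%, with 24.9% and 32.0% past 2-fold either way). In Yumm1.7, 3 of 6 were higher in input (23.1%), in monosomes (25.4%) and in polysomes (24.1%), and 1 was lower in monosomes (24.0%) but 0 in input (22.3%) and in polysomes (22.5%). Either way, 45.3%, 49.4% and 46.6% of all genes were past 2-fold in these 3 fractions of Yumm1.7. With members this few and CRYAB chosen on these values, nothing is read from the shares. The median of the members was 0.82, -0.17 and 0.35 in A375 input, monosomes and polysomes, and 2.04, 2.20 and 2.09 in Yumm1.7, where all genes have a median of 0. In all 3 fractions at once, CRYAB was past 2-fold higher in A375 (6.24% of all genes), and Cryab, Hspb2 and Hspb6 were in Yumm1.7 (14.1%), while 0 members were lower in all 3 in A375 (6.33%) or in Yumm1.7 (11.7%). Of the 4 members compared in both lines, CRYAB, HSPB8, HSPB11 and BAG3, only CRYAB was past 2-fold higher in both in input (6.56% of 8523 shared genes), in monosomes (4.35%) and in polysomes (6.97%). None was past 2-fold lower in both lines in any fraction (7.88%, 4.58% and 7.81% of shared genes).

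**Figure D2:**
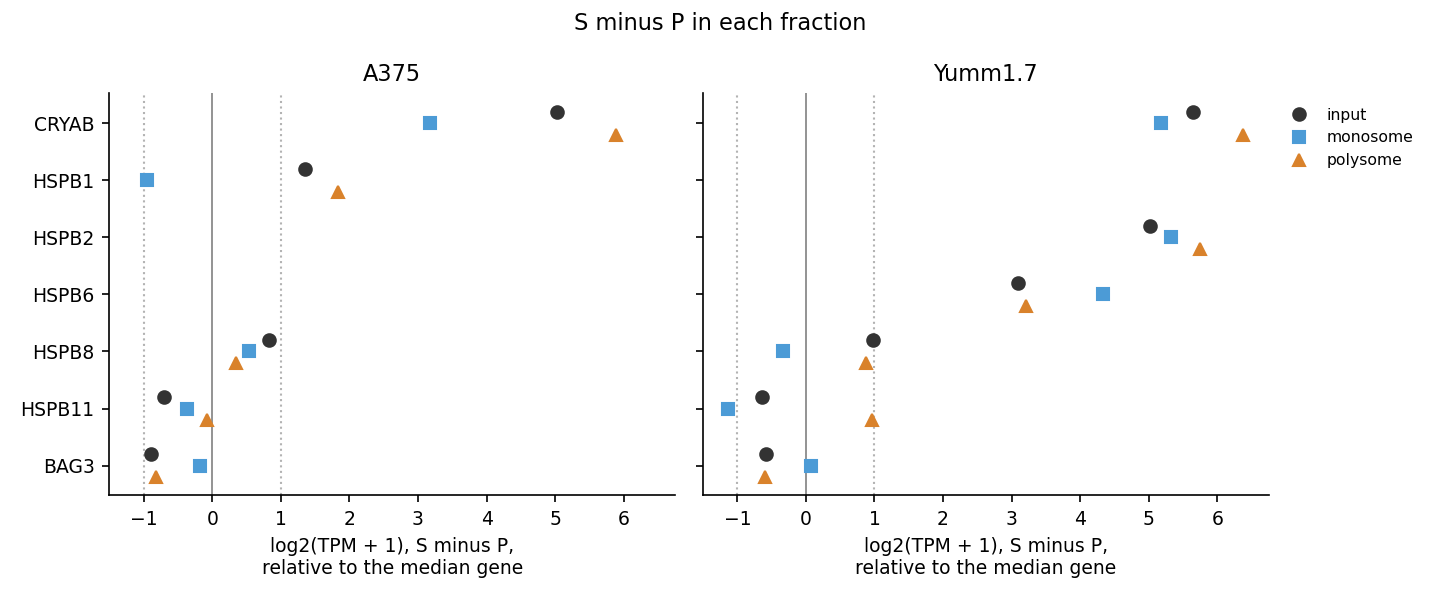
S minus P on the log2(TPM + 1) scale, relative to the median gene, for each member (rows) in input, monosome and polysome RNA of A375 (left) and Yumm1.7 (right), with dotted lines at 2-fold. CRYAB lies between 3.18 and 6.38, and the BAG3 points lie between -0.89 and 0.07.

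**Figure D3:**
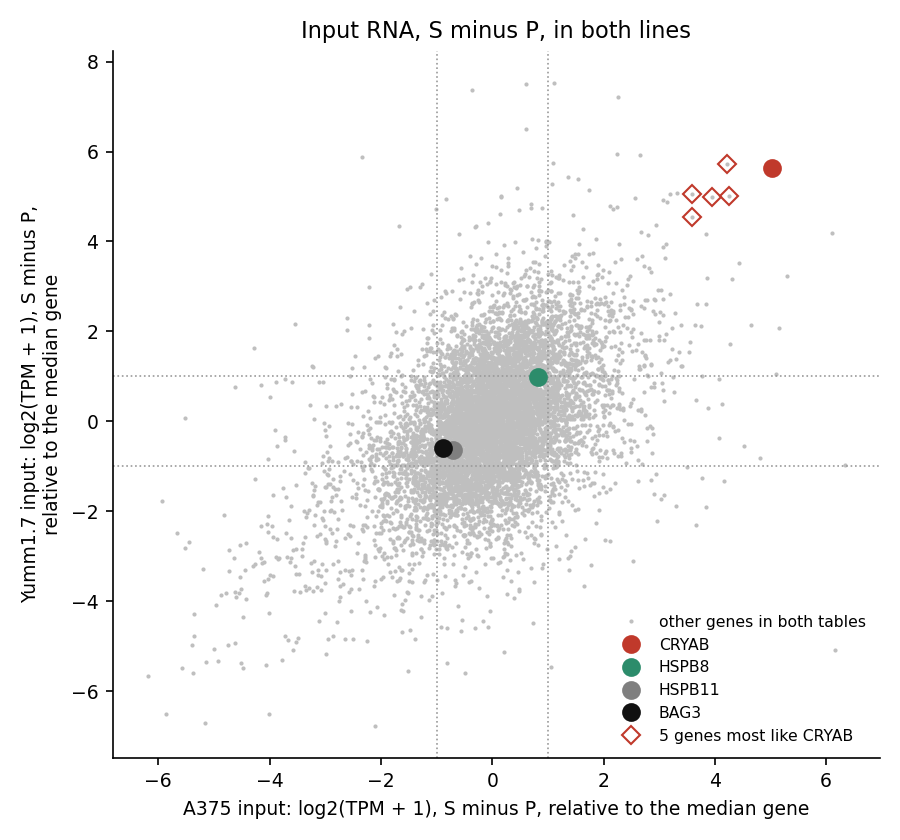
S minus P in input RNA of A375 (x axis) and Yumm1.7 (y axis), both log2(TPM + 1) relative to the median gene, for 8523 genes with matching symbols. CRYAB lies at 5.03 and 5.64, near the 5 genes most like it (diamonds), while HSPB8, HSPB11 and BAG3 lie within the 2-fold lines (dotted).

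The polysome and monosome libraries were compared for the relative enrichment of each mRNA. Since TPM is scaled within each library, they do not show how much of an mRNA was in each fraction. In A375, CRYAB had 188 TPM in polysomes and 31.6 in monosomes of S, a ratio of 5.96, against 2.68 and 2.50 TPM in P, a ratio of 1.07. HSPB1 also had a higher ratio in S, with 1070 and 120 TPM in S (ratio 8.93), against 347 and 227 TPM in P (ratio 1.53). Relative to the median gene, the polysome-to-monosome value was 1.87 in S and -0.98 in P for CRYAB, and 2.48 in S and -0.44 in P for HSPB1, although both TPM ratios of P were above 1. The S minus P difference of this ratio was 2.76 for CRYAB and 2.83 for HSPB1, the 92nd and 81st highest of 12638 genes. For CRYAB it rests on P libraries with 2.68 and 2.50 TPM. Set against input instead, polysome over input TPM was 1.50 in S and 0.772 in P for CRYAB, and 1.93 and 1.40 for HSPB1.

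BAG3 mRNA was enriched in the polysome over the monosome library in both A375 states. Its ratio of polysome to monosome TPM was 5.74 in S and 10.7 in P (1.75 and 2.26 relative to the median gene). HSPB8 and HSPB11 stayed within 2-fold of the median gene in both states, at 0.21 and 0.59 in S and at 0.26 and 0.16 in P. In A375 S, 3 of 5 members (CRYAB, HSPB1 and BAG3) were at least 2-fold higher in polysomes relative to the median gene (20.8% of all genes), and in P 1 of 5, BAG3 (19.1%). None was lower in S (16.7%, with 37.5% past 2-fold either way) or in P (20.8%, with 39.9% either way). The ratio was past 2-fold higher in S than in P for 2 of 5 members (13.1%) and lower for 0 (7.88%), where 20.9% of all genes were past 2-fold either way.

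Yumm1.7 gave another picture. Cryab had 1438 TPM in polysomes and 2191 in monosomes of S, against 49.1 and 68.7 TPM in P, so the ratio was near that of the other state (0.656 in S and 0.715 in P). Relative to the median gene it was -0.14 in S and -1.39 in P, and the S minus P difference of 1.29 has the other sign as deposited (-0.13). Hspb6 was among the least polysomal mRNAs of Yumm1.7 S, with 42.5 TPM in polysomes and 178 in monosomes (-1.58, the 315th lowest of 10492 genes), against 12.6 and 9.28 TPM in P (-0.51, or 0.41 as deposited). Hspb2 was more polysomal than the median gene in both states (1.68 in S and 1.20 in P). The P value rests on 6.04 TPM in polysomes and 0.622 in monosomes, so the pseudocount shapes it.

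Bag3 in Yumm1.7 had a polysome-to-monosome ratio of 0.751 in S and 3.11 in P, which relative to the median gene is 0.07 and 0.68. Polysome over input TPM was 1.36 in S and 2.05 in P for Bag3, and 0.713 and 0.644 for Cryab. Hspb8 was at -0.14 in S and -1.40 in P and Hspb11 at 0.88 in S and -1.27 in P. Of the 6 members, 1 was at least 2-fold higher in polysomes in S (13.2% of all genes) and 1 in P (14.0%), and 1 was lower in S (10.9%) and 3 in P (13.4%). Either way, 24.0% of all genes were past 2-fold in S and 27.3% in P. The ratio was past 2-fold higher in S than in P for Cryab, Hspb8 and Hspb11 (3 of 6, against 17.3% of all genes) and lower for Hspb6 (1 of 6, against 12.6%), where 29.9% of all genes were past 2-fold either way. Only Hspb11 among the 3 kept a positive sign as deposited (0.77), with Hspb8 at -0.12.

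**Figure D4:**
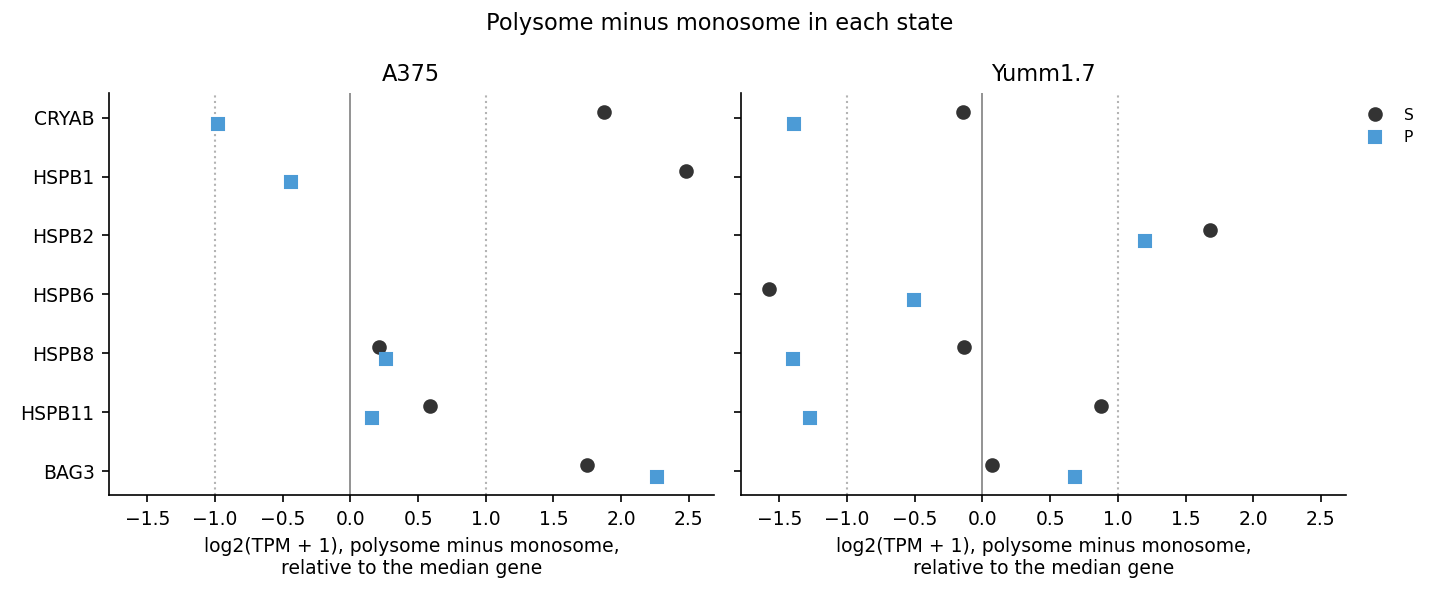
Polysome minus monosome on the log2(TPM + 1) scale, relative to the median gene, for each member in S and P of A375 (left) and Yumm1.7 (right), with dotted lines at 2-fold. CRYAB and HSPB1 of A375 lie at 1.87 and 2.48 in S and, on this scale, below 0 in P (-0.98 and -0.44), and Hspb6 of Yumm1.7 S lies lowest at -1.58.

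The chaperones that HSF1 induces together with small heat shock proteins did not follow CRYAB in input RNA. Of 19 such genes compared in A375, 11 were at least 2-fold lower in S input (16.2% of all genes) and 1 was higher (15.6%), with a median of -1.14 against 0 for all genes. The mitochondrial chaperonin genes HSPD1 and HSPE1 had 157 and 363 TPM in S and 1131 and 1434 TPM in P. The HSP90 gene HSP90AB1 had 487 TPM in S and 2427 in P, and the HSP90 co-chaperone gene FKBP4 27.7 TPM in S and 106 in P. The HSP40 gene DNAJB4, named after its value was seen, was the one that was higher (21.2 TPM in S and 10.1 in P). In A375 polysomes the list was closer to the median gene, with 1 of 19 higher (16.5%), 4 lower (15.6%) and a median of -0.17, and in monosomes the counts were 1 (11.7%) and 1 (13.2%), with a median of -0.07.

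In Yumm1.7 input, 6 of 19 were lower (22.3% of all genes) and 0 higher (23.1%), with a median of -0.57. Hspd1 had 25.9 TPM in S and 311 in P, Cacybp, which binds a ubiquitin ligase, 13.9 and 142 TPM, the HSP110 gene Hsph1 7.05 and 58.8 TPM, and the HSP90 activator gene Ahsa1 49.4 and 283 TPM. In Yumm1.7 monosomes 4 were higher (25.4%) and 4 lower (24.0%), with a median of -0.38. In polysomes 2 were higher (24.1%) and 5 lower (22.5%), with a median of 0.02. The inducible HSP70 genes HSPA1A and HSPA1B, whose near-identical sequences can exchange reads, had 6.13 and 3.72 TPM in A375 S input, against 9.77 and 9.16 TPM in P (chosen after their values were seen).

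Of the heat shock factor genes and HSBP1, which binds HSF1, 1 of 4 was at least 2-fold higher in A375 S input, HSF4, with 9.01 TPM in S and 3.48 in P (1.36 relative to the median gene), where 15.6% of all genes were higher. HSF1 itself had 56.4 TPM in S and 56.1 in P in A375 input and 32.3 and 42.3 TPM in Yumm1.7 input, where 0 of 4 were past 2-fold (45.3% of all genes either way). In Yumm1.7 monosomes, Hsf4 and Hsbp1 were higher (2 of 4, against 25.4% of all genes) and 0 were lower (24.0%). In Yumm1.7 polysomes, Hsf4 and Hsbp1 were again higher relative to the median gene (24.1%) and Hsf2 was lower (1 of 4, against 22.5%). By TPM, Hsf4 had 5.52 in S polysomes and 4.10 in P, whereas Hsbp1 was lower in S (129 and 150 TPM). Among other BAG genes, BAG1, an HSP70 nucleotide exchange factor, was the 1 of 5 past 2-fold higher in A375 S input (41.9 TPM in S and 22.9 in P, log2 1.04), near the 15.6% of all genes. In Yumm1.7 input, 1 of 5 was higher and 2 lower, against 23.1% and 22.3% of all genes. Bag6 was higher (153 TPM in S and 73.8 in P), and Bag2 (0.886 TPM in S and 27.8 in P) and Bag4 (0.895 and 7.88 TPM) were lower.

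Partners and clients of BAG3 in chaperone-assisted autophagy had a median above that of all genes in the 3 fractions of A375 and below it in input but not in the other fractions of Yumm1.7. In A375 S input, 4 of 14 were at least 2-fold higher (15.6% of all genes) and 0 lower (16.2%), with a median of 0.57. In A375 monosomes 2 of 14 were higher (11.7%) and 0 lower (13.2%), with a median of 0.48. In polysomes 6 of 14 were higher (16.5%) and 0 lower (15.6%), with a median of 0.76. The higher genes in input included the autophagy gene GABARAPL1 (115 TPM in S and 28.0 in P) and the actin-binding gene SYNPO (2.85 and 0.261 TPM). They also included MAP1LC3B (220 and 95.4 TPM), which encodes an autophagosome protein. In Yumm1.7 S input, 7 of 15 were higher (23.1%) and 2 lower (22.3%), with a median of -0.25. Synpo had 34.9 TPM in S and 4.09 in P, the filamin gene Flna 226 and 77.8 TPM, and Stub1, which encodes the ubiquitin ligase CHIP, 642 and 299 TPM. Gabarapl1 had 98.8 TPM in S and 58.8 in P. In Yumm1.7 monosomes 7 of 15 were higher (25.4%) and 3 lower (24.0%), with a median of 0.99, and in polysomes 4 (24.1%) and 1 (22.5%), with a median of 0.14.

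Of 8 kinases compared that phosphorylate small heat shock proteins, 1 was at least 2-fold higher in A375 S input, the cyclic GMP-dependent kinase gene PRKG1 (6.23 TPM in S and 0.549 in P), and 0 lower, against 15.6% and 16.2% of all genes. In Yumm1.7, 1 of 6 compared was lower, Mapkapk5 (12.8 TPM in S and 54.2 in P), and 0 higher, against 22.3% and 23.1% of all genes. Intermediate filament genes, whose proteins CRYAB binds, were mixed. In A375 S input, 2 of 7 were at least 2-fold higher (15.6% of all genes) and 2 lower (16.2%). In Yumm1.7 S input, 2 of 4 were higher (23.1%) and 1 lower (22.3%). KRT8 was higher in A375 input (17.7 TPM in S and 7.47 in P) and KRT18 lower (42.2 and 171 TPM). Nes was higher in Yumm1.7 input (59.1 TPM in S and 25.3 in P). LMNA, the lamin A/C gene, was higher in input of A375 (669 TPM in S and 359 in P) and, relative to the median gene, of Yumm1.7 (711 and 613 TPM). The lamin B1 gene LMNB1 was lower in input of A375 (1.96 TPM in S and 123 in P) and of Yumm1.7 (0.580 and 28.4 TPM). VIM, which encodes vimentin, was within 2-fold in both, at 3512 and 4859 TPM in A375 and 1526 and 2667 TPM in Yumm1.7. Of the other lens crystallin genes, CRYGS had 260 TPM in S and 3.35 in P in A375 input, and 8.48 TPM in S while listed at 0 in P in Yumm1.7 input. Of the remaining small heat shock protein genes, HSPB3 and HSPB9 were listed in A375 and Hspb9 in Yumm1.7, all at most 1.24 TPM (named after their values were seen).

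**Figure D5:**
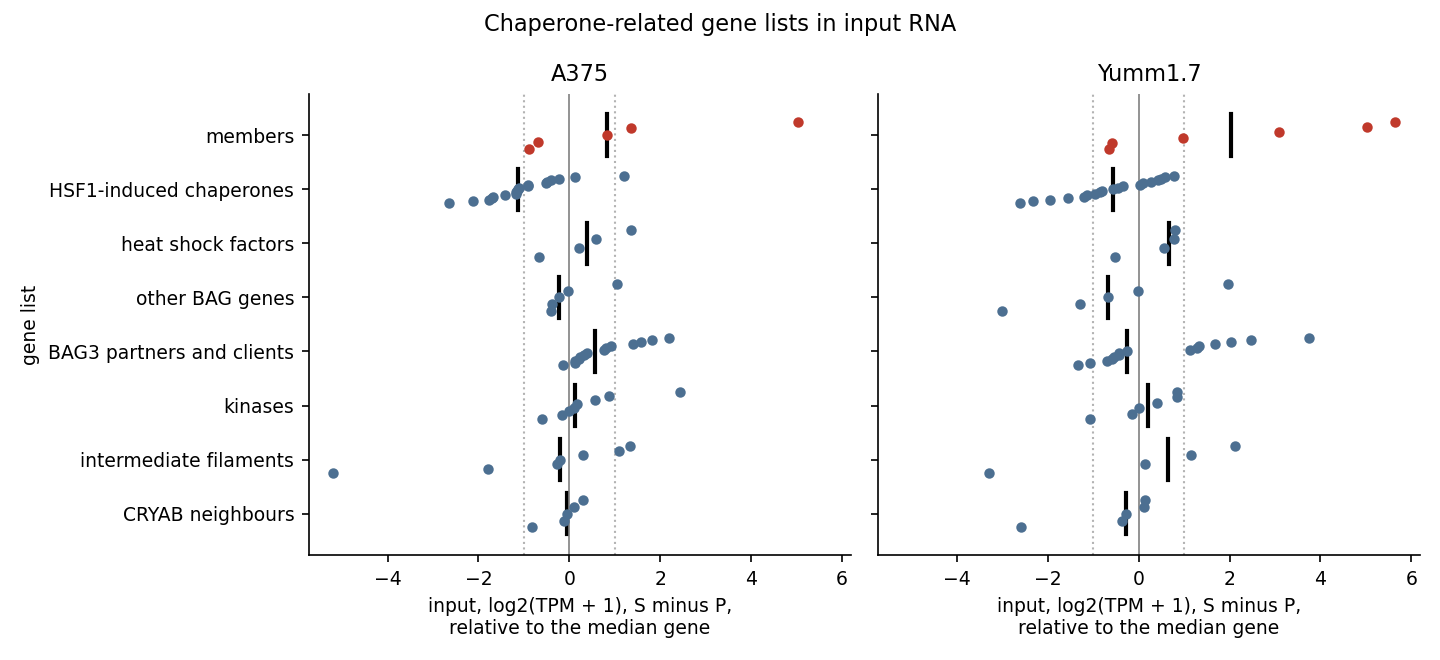
S minus P in input RNA on the log2(TPM + 1) scale, relative to the median gene, for the members (red) and for each list of related genes (blue), with a black bar at the median of the genes compared and dotted lines at 2-fold. The medians of the HSF1-induced chaperones are -1.14 (A375) and -0.57 (Yumm1.7), and CRYAB is the highest member in both panels.

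Likeness to CRYAB was measured as the Pearson correlation of log2(TPM + 1), centred within each line, over the 12 libraries and among 8523 genes. The 5 most like it were the short-chain collagen gene COL8A1 (r 0.98), the transcription factor gene SOX4 (0.98), the matrix protein gene TGFBI (0.98), the MAX partner gene MXD4 (0.98) and the transcription factor gene MAF (0.97). COL8A1 had 18.1 TPM in S and 0.151 in P in A375 input, and 18.9 and 0.183 TPM in Yumm1.7 input. SOX4 had 77.6 and 6.46 TPM in A375 input, and 179 and 9.31 TPM in Yumm1.7 input. Of the other members, HSPB8 had an r with CRYAB of 0.12, BAG3 of -0.36 and HSPB11 of -0.54. The genes most like BAG3 were the peptidase gene PREP (0.99), the RNA helicase gene DHX37 (0.99) and the squalene synthase gene FDFT1 (0.99). HSPB11 had an r with BAG3 of 0.81, which ranked only 2141st among the 8523 genes, and HSPB8 of 0.57, which ranked 5070th. The 12 libraries share 4 cell states and 3 fractions, so these values describe the libraries and are no test.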

How the data were processed

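The authors' deposited values are TPM per gene, in 1 table per cell line with 6 libraries each, and no read counts were used. Per the labels' protocols, RNA was extracted from liquid with a phenol reagent, poly(A) RNA was selected, and cDNA was primed at random and amplified by PCR. Per the submitters' processing notes, the builds were GRCh38 (hg38) and GRCm38 (mm10). No source used here names the aligner, the quantifier, the annotation or the strand setting. Depth is unknown, since TPM keeps none, so no counting error is given, and TPM says nothing about the amount of RNA in a fraction.

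Values were compared as log2(TPM + 1) with Python 3.11.15, pandas 2.3.3 and numpy 2.4.6. Each group has 1 library, so no test was made. The computation was tested on simulated data for S against P in input only, with changes planted in well expressed genes. Changes at low values and the polysome-to-monosome comparisons were not covered by it. The members, the gene lists and the comparisons were chosen with earlier results of these data known. By rule, the text names all members, the genes most like CRYAB (5) and BAG3 (3), and up to 4 genes of each list with the largest input difference. Genes outside it are marked, except that a gene named by rule in 1 line may be given in both, and some genes that the rule names are not reported here. HSPB11 was matched to IFT25 through RefSeq synonyms after the tables were seen. Promoters came from RefSeq (GRCh38.p14), where 5 of 7 members matched. No protein sequences were used. Alternatives were the pseudocount, the filter and the scaling.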

Additional observations from a re-analysis of the deposited data

How the results depend on the processing

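CRYAB stayed at least 2-fold higher in S than in P in all 3 fractions of both lines under the 6 alternatives tried, as did Hspb2 and Hspb6 in Yumm1.7. Over all members and comparisons, 355 of 396 recomputed values kept their side of 2-fold, 24 moved past it, 15 moved within it and 2 that had been past 2-fold changed sign. Those 2 were the Yumm1.7 polysome-to-monosome differences of CRYAB (-0.13) and HSPB8 (-0.12) as deposited, not relative to the median gene. Another 23 recomputed values that were within 2-fold also changed sign, such as HSPB8 (-0.66) and HSPB11 (-0.56) in Yumm1.7 polysomes as deposited. The number of members past 2-fold in either direction changed by over 1.5 times in these cases. For polysome against monosome in A375 P it was 1, but 2 with a pseudocount of 0.1, with no filter or with a minimum mean of 5 TPM, and 3 as deposited. In Yumm1.7 input it was 3, but 5 as deposited or rescaled without mitochondrially encoded genes, with Bag3 and Hspb11 added as lower. In Yumm1.7 polysomes it was 3, but 5 with a pseudocount of 0.1. For polysome against monosome in Yumm1.7 P it was 4, but 2 with a pseudocount of 5, as deposited or rescaled. For the Yumm1.7 polysome-to-monosome difference it was 4, but 2 as deposited. In 14 other cases it changed by 1 member, among them A375 input and polysomes as deposited (3 each, with BAG3 added as lower) and polysome against monosome in A375 S as deposited (4, with HSPB11 added). A cause other than the scale itself was not tested. No paired analysis was possible because each group has 1 library, and no library could be left out. The unknown depth limits low values, such as CRYAB in A375 P and HSPB6 in A375.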
